A study of Mus musculus with 12 samples.

Results

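The genes described here mark the osteoblast lineage or carry bone morphogenetic protein (BMP) signals, and they were read in adipocytes in which the steroid receptor RNA activator (SRA) was raised or lowered. They are Runx2, Sp7, Alpl, Spp1, Ibsp, Tnfrsf11b, Bmp4, Bmpr1a, Acvr1 and Id1, and each was found by its symbol. Each was read through the probe sets that the array's annotation assigns to that symbol alone, and the probe set with the highest mean over the 12 arrays leads. This gave 17 probe sets for 8 of the 10 genes, out of 18194 genes with such a probe set and 45101 probe sets on the array. The annotation used here lists no probe set under Runx2 or Spp1 alone, and both were not analysed here. RefSeq places Sp7 and Tnfrsf11b on chromosome 15, Alpl on 4, Ibsp on 5, Bmp4 and Bmpr1a on 14, and Acvr1 and Id1 on 2.

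Arrays of 4 groups, 3 in each, were compared. ST2 is a mouse bone marrow stromal line (strain given as BC8) that can form osteoblasts as well as adipocytes. ST2 SRA cells carried the retrovirus pMSCV-SRA with the human isoform 2 cDNA of SRA, and ST2 control cells carried the pMSCV empty vector. 3T3-L1 is a mouse fibroblast preadipocyte line (Swiss albino). 3T3-L1 shSRA cells carried pSuperior-shSRA-2, a short hairpin RNA against mouse SRA, and 3T3-L1 shControl cells carried pSuperior-shcontrol, which the labels call an empty vector and the methods a control hairpin. Differentiation of all cells was induced with MDIT, a mixture of the phosphodiesterase inhibitor methylisobutylxanthine at 0.5 mM, the glucocorticoid dexamethasone at 1 µM, insulin at 0.167 µM and the PPARγ agonist troglitazone at 5 µM. ST2 adipocytes were harvested on day 4 and 3T3-L1 adipocytes on day 8. The cells were drug-selected pools from retroviral infection, not single clones. Replicates are labelled biological, and whether they were separate infections is not stated, so the p-values measure only the spread between these samples.

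Marrow stromal cells can become osteoblasts or adipocytes, and the transcription factors Runx2 and Sp7 drive the osteoblast program while PPARγ drives the adipocyte program. BMP ligands such as Bmp4 bind a type II receptor together with a type I receptor such as Bmpr1a or Acvr1, which phosphorylates SMAD1, SMAD5 and SMAD9, and Id1 is one of the genes these SMADs switch on. BMP signals are known to favor bone formation and, in stromal cells, also commitment to the adipocyte lineage.

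RefSeq promoter windows of the genome build GRCm38.p6, reaching 250 bases before and 50 bases after the transcription start, were held for 7 of the 10 genes (9 windows). Shown are 4, those of the ligand and the 2 receptors that the results turn on and, for contrast in base composition, that of Ibsp, a gene read near background. Capitals mark any match, on either strand, to 4 motifs: the GC box GGGCGG, the TATA box TATAAA, the RUNX motif ACCACA and the SMAD-type GC motif GGCGCC.
Bmp4, chr14:46390620-46390919, minus strand: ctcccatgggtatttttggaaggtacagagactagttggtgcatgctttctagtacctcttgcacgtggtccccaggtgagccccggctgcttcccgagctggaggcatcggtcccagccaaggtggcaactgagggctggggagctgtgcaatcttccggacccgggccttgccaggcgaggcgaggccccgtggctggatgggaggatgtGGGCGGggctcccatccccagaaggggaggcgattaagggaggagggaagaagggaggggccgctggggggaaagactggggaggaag
Bmpr1a, chr14:34502497-34502796, minus strand: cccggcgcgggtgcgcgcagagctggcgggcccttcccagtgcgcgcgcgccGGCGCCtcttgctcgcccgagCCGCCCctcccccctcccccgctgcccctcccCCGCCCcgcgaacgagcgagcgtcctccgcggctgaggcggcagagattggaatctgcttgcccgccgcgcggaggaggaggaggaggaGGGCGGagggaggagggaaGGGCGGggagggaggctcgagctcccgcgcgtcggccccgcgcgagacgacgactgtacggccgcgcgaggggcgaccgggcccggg
Acvr1, chr2:58566779-58567078, minus strand: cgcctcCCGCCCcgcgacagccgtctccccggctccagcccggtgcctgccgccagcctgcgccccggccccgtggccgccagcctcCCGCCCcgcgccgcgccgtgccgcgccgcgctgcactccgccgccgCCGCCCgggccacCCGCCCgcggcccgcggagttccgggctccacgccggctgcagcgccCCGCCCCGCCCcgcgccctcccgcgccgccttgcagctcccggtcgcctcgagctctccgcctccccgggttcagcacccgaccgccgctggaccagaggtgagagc
Ibsp, chr5:104299037-104299336, plus strand: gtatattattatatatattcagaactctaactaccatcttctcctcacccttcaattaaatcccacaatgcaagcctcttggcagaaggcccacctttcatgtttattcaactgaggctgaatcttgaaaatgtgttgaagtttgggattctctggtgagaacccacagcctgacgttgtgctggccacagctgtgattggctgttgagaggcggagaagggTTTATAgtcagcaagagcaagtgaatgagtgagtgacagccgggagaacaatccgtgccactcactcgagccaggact
The window of Acvr1 had 83.7% G or C and held 6 GC boxes, the window of Bmpr1a had 79.3% and held 4, and the window of Bmp4 had 64% and held 1. The window of Ibsp had 46.3% and held no GC box but 1 TATA box. In Bmpr1a there was also 1 match to the SMAD-type motif, and in Acvr1 1 pair of matches overlapped. Of 32851 promoter windows of this length, 35.7% held a GC box, 13.6% a TATA box, 16.8% the RUNX motif and 11.9% the SMAD-type motif. A match is a run of letters and does not show that a factor binds there.

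On the deposited scale, the log2 value of robust multi-array average (RMA), 1 unit is a 2-fold difference, and values of different probe sets cannot be ranked as levels. As a guide to what unused genes read, 83 probe sets of olfactory, vomeronasal and taste receptor genes had a 95th percentile of 6.14 to 6.43 on the 12 arrays. In all cultures the mean over 9 adipocyte markers lay above the receptor range. It was 13.29 to 13.39 in ST2 SRA, 12.69 to 13.21 in ST2 control, 13.90 to 14.03 in 3T3-L1 shSRA and 13.81 to 13.98 in 3T3-L1 shControl adipocytes. The same mean over 7 osteoblast markers, Sp7, Alpl and Ibsp among them, was 6.15 to 6.25 in ST2 SRA, 6.45 to 6.48 in ST2 control, 6.20 to 6.27 in 3T3-L1 shSRA and 6.30 to 6.36 in 3T3-L1 shControl adipocytes. Of these 7 markers 3 passed a variance filter and were tested, and only Col1a1 was lower in ST2 SRA than in ST2 control adipocytes by the test (-1.47). Over all tested probe sets 5.65% were called lower. The median difference of the 7 was -0.07. Sra1 itself had 9.46, 9.20 and 9.62 in shSRA adipocytes, against 11.86, 11.67 and 11.84 in shControl adipocytes (difference -2.36, adjusted p = 5.58e-07). In ST2 adipocytes the mouse probe set showed a difference of 0.22 (adjusted p = 0.484) and may not read the human cDNA. Over the 14314 probe sets with a mean of at least 8, ST2 control replicate 2 deviated from its group by a median of -0.43, while the other 11 arrays deviated by -0.07 to 0.24.

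Of the osteoblast lineage 4 genes were measured, and none separated any pair of neighbouring groups on its leading probe set. Sp7, the zinc finger factor that acts after Runx2 in osteoblast differentiation, had 6.72, 7.08 and 6.84 in ST2 SRA and 6.75, 6.83 and 6.88 in ST2 control adipocytes. It had 6.56, 6.64 and 6.70 in shSRA and 6.64, 6.89 and 6.91 in shControl adipocytes. All 12 values lay above the receptor range, and the order of the means was ST2 SRA, ST2 control, shControl and shSRA, with every neighbouring pair overlapping.

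Alpl, tissue-nonspecific alkaline phosphatase, which supplies phosphate for mineral, also lay above the receptor range on all 12 arrays. It had 7.16, 6.99 and 7.04 in ST2 SRA and 6.97, 7.30 and 6.98 in ST2 control adipocytes. In 3T3-L1 adipocytes it had 7.05, 6.70 and 6.45 with shSRA and 7.14, 6.78 and 7.04 with shControl. The lowest value of the gene was that of shSRA replicate 3, and each neighbouring pair of groups overlapped.

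Ibsp, integrin-binding sialoprotein of bone matrix, never rose above the receptor range. Its leading probe set averaged 4.79 ± 0.10 in ST2 SRA, 4.86 ± 0.16 in ST2 control, 4.82 ± 0.22 in shSRA and 4.92 ± 0.23 in shControl adipocytes (SD, n = 3 each), and its second probe set averaged 3.97 ± 0.06 in ST2 SRA, 3.94 ± 0.12 in ST2 control, 4.18 ± 0.11 in shSRA and 4.54 ± 0.60 in shControl adipocytes. Tnfrsf11b encodes osteoprotegerin, the decoy receptor that keeps RANKL from activating osteoclast precursors. It too stayed below the receptor range on all 12 arrays, with 5.55, 5.23 and 5.79 in ST2 SRA and 5.43, 5.45 and 5.45 in ST2 control adipocytes, and with 4.95, 5.19 and 5.22 in shSRA and 4.92, 5.45 and 5.23 in shControl adipocytes. For both genes no difference was detectable at these signals in the SRA comparisons or between the control adipocytes. The exception was the second Ibsp probe set between the lines, given further on. Other pairs of groups were not tested.

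**Figure D1:**
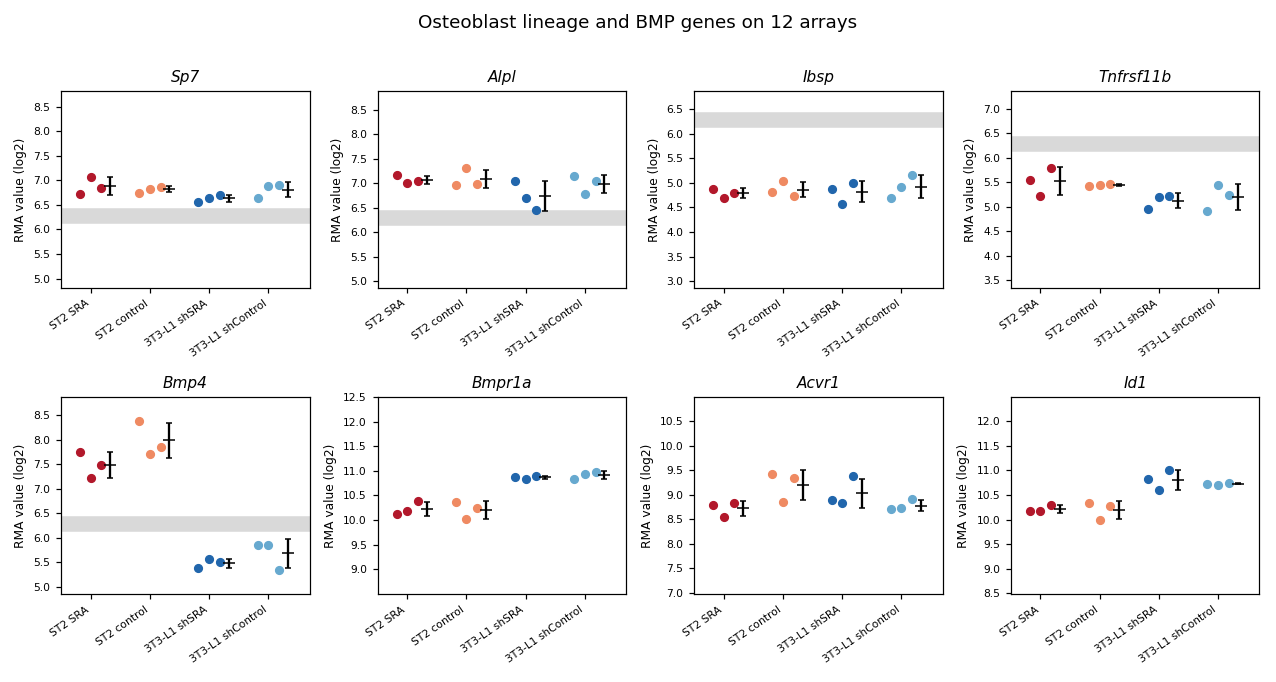
RMA values (log2) of the leading probe set of 8 genes on the 12 arrays, with 1 point per array, the mean and SD (n = 3) as a black bar, and the range of the receptor probe sets' 95th percentile as a gray band. Bmp4 lies above the band on the 6 ST2 arrays and below it on the 6 3T3-L1 arrays, while Ibsp and Tnfrsf11b lie below it throughout.

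Among the BMP genes, the ligand Bmp4 differed most between the lines. It had 7.75, 7.21 and 7.49 in ST2 SRA and 8.38, 7.72 and 7.86 in ST2 control adipocytes, and 5.38, 5.56 and 5.50 in shSRA and 5.85, 5.85 and 5.35 in shControl adipocytes. The 6 ST2 arrays were all above the receptor range and the 6 3T3-L1 arrays all below it. Within each line the groups with and without the SRA change overlapped.

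Bmpr1a, the type I receptor that Bmp4 uses, was read by 6 probe sets. The leading one had 10.12, 10.19 and 10.39 in ST2 SRA and 10.38, 10.01 and 10.24 in ST2 control adipocytes. In 3T3-L1 adipocytes it had 10.88, 10.84 and 10.90 with shSRA and 10.84, 10.94 and 10.99 with shControl, so that every 3T3-L1 array was above every ST2 array. Of the other 5, 3 were bright (8.83 to 10.35 over all arrays), and 2 lay at the edge of the receptor range (5.86 to 6.71).

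Acvr1 encodes ALK2, a type I receptor of several BMPs. On its leading probe set the ST2 SRA and ST2 control arrays did not overlap, and the share of all probe sets that separate so is not given here. It had 8.78, 8.55 and 8.84 in ST2 SRA adipocytes, against 9.42, 8.84 and 9.34 in ST2 control adipocytes. The gap was narrow, because the lowest control value, that of replicate 2, almost touched the highest SRA value. In 3T3-L1 adipocytes Acvr1 had 8.88, 8.82 and 9.37 with shSRA and 8.70, 8.73 and 8.91 with shControl.

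Id1, an inhibitor of basic helix-loop-helix factors and a classical target of BMP SMADs, had 10.17, 10.17 and 10.31 in ST2 SRA and 10.34, 9.98 and 10.27 in ST2 control adipocytes. It had 10.82, 10.60 and 11.00 in shSRA and 10.73, 10.71 and 10.74 in shControl adipocytes. As for Bmpr1a, the 3T3-L1 arrays were all above the ST2 arrays and the groups within a line overlapped. The share of all probe sets that separate the lines, as Bmp4, Bmpr1a and Id1 did, is not given here. In ST2 control against shControl adipocytes 26.2% of all tested probe sets were called higher and 37.4% lower.

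The first comparison asked how more SRA changed these genes in ST2 adipocytes. Of the 8 leading probe sets, 6 passed the variance filter and were tested, and 0 were higher and 0 lower in ST2 SRA than in ST2 control adipocytes at an adjusted p under 0.05 (limma, Benjamini-Hochberg over 19068 probe sets), with 2 at an unadjusted p under 0.05. Over all tested probe sets 2.33% were called higher and 5.65% lower. The median difference of the 8 leading probe sets was 0.0002, against 0.06 over 18194 genes. In these bulk cultures a change in the share of cells expressing a gene and a change in RNA per cell cannot be told apart.

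The 2 genes below an unadjusted p of 0.05 were Acvr1 and Bmp4. Acvr1 differed by -0.48 (95% confidence interval -0.86 to -0.09, adjusted p = 0.133), and its second bright probe set by -0.46 (adjusted p = 0.138). The remaining one, at the edge of the receptor range, differed by 0.04 (-0.19 to 0.27). The paper, under its own test, lists the leading Acvr1 probe set as lowered by SRA overexpression in ST2 cells. The fall it gives is also larger than the one found here, and the reason was not tested. Without ST2 control replicate 2, the array that read low over bright probe sets, the Acvr1 difference was -0.65 and passed the test (adjusted p = 0.0173). Acvr1 also passed with array weights, centring on bright probe sets, a second quantile normalization and the replicate block (adjusted p = 0.000178 to 0.0401). It did not pass under the other alternatives, where the difference shrank to -0.37 without ST2 control replicate 1 and to -0.30 as the mean of its 3 probe sets, with adjusted p up to 0.396 (without ST2 SRA replicate 2).

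Bmp4 averaged 7.48 ± 0.27 in ST2 SRA and 7.99 ± 0.35 in ST2 control adipocytes (SD, n = 3 each), a difference of -0.50 (-0.91 to -0.09, adjusted p = 0.135). Leaving out single arrays gave -0.64 to -0.30, the smallest without ST2 control replicate 1, and no call (adjusted p up to 0.44), whereas array weights (-0.36, adjusted p = 0.0317) and the replicate block (adjusted p = 0.0253) did. The other 6 genes gave differences of -0.07 to 0.08. For Id1 the interval ran from -0.31 to 0.35, for Bmpr1a from -0.30 to 0.34, for Alpl from -0.39 to 0.35 and for Sp7, which failed the variance filter and has no adjusted p, from -0.19 to 0.31. The values of Ibsp (-0.07, not past the filter) and Tnfrsf11b (0.08) lay below the receptor range and bound no change in expression. The other 3 bright Bmpr1a probe sets differed by 0.20, 0.23 and 0.26, with overlapping groups.

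The second comparison asked how less SRA changed them in 3T3-L1 adipocytes. Again 0 of the 6 tested leading probe sets were higher and 0 lower, with 0 at an unadjusted p under 0.05, where 0.0315% of all tested probe sets were called higher and 0.042% lower. The replicate numbers paired these arrays, and with the number as a block the calls over all probe sets went to 62 higher and 39 lower, in place of 6 and 8, with the members still at 0 and 0. Centring on bright probe sets left 1 higher and 3 lower. The median over the 8 leading probe sets was -0.09, against -0.01 over 18194 genes. The differences were 0.25 for Acvr1 (-0.14 to 0.64), -0.25 for Alpl (-0.62 to 0.12), -0.18 for Sp7 (-0.43 to 0.07) and 0.08 for Id1 (-0.25 to 0.41). These intervals are those of the fit without the block. Single arrays moved them widely without a call, Acvr1 over 0.08 to 0.35 and Alpl over -0.41 to -0.11, with the smallest value of both when shSRA replicate 3 was left out. The differences of Bmp4 (-0.20), Tnfrsf11b (-0.08) and Ibsp (-0.11) were between values below the receptor range.

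The probe sets of Bmpr1a disagreed here. The leading one averaged 10.87 ± 0.03 in shSRA and 10.92 ± 0.08 in shControl adipocytes (SD, n = 3 each), a difference of -0.05 (-0.37 to 0.27). The other 3 bright ones differed by 0.27, 0.19 and 0.25, each with all shSRA arrays above all shControl arrays, at an adjusted p of 1. That fit ignored the pairing of these arrays, and no result with the replicate block is given for these 3 probe sets. The share of all probe sets that separate so is not given here. The direction of Bmpr1a after SRA knockdown thus differed between its probe sets, and none passed the test without the block.

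**Figure D2:**
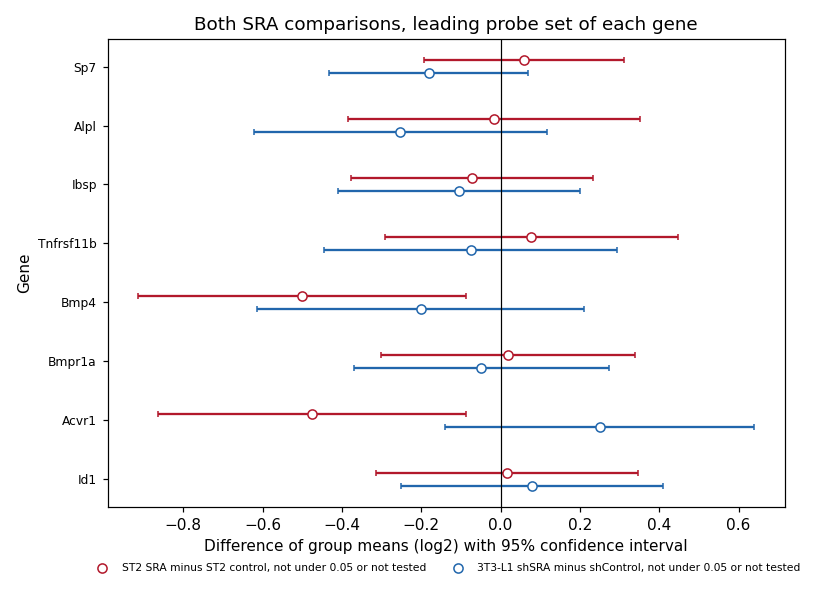
Differences of group means (log2) with 95% confidence intervals for the leading probe sets of 8 genes, ST2 SRA minus ST2 control and 3T3-L1 shSRA minus shControl (n = 3 each). All 16 points are open (adjusted p not under 0.05, or not tested), and only the ST2 intervals of Bmp4 and Acvr1 leave out 0.

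Whether the responses differed was tested as the ST2 difference minus the 3T3-L1 difference. No leading probe set passed (0 higher and 0 lower of the 6 tested, 1 at an unadjusted p under 0.05), where 0.246% of all tested probe sets were called higher and 2.07% lower. Acvr1 came nearest, with -0.73 (-1.28 to -0.18, adjusted p = 0.232), and passed without ST2 control replicate 2 (-0.90, adjusted p = 0.0281), with array weights (adjusted p = 0.00293) and with the replicate block (adjusted p = 0.0405). Raising SRA in one line and lowering it in the other are not mirror images of one treatment, and both differences enter this test.

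Set against shControl adipocytes, ST2 control adipocytes showed the largest differences of this set. Line, vector, strain and day of harvest all differ between these groups and cannot be told apart, and the control arrays are those of the comparisons above. Bmp4 was higher in ST2 control adipocytes (7.99 ± 0.35, against 5.68 ± 0.29 in shControl adipocytes, SD, n = 3 each), and the measured means differed by 2.30 (adjusted p = 6.64e-09). Because the shControl values lay below the receptor range, the fold is only a bound, at least 3.17-fold when set against the mean of that range's 95th percentile on the shControl arrays (6.32). Bmpr1a was lower, with 10.21 ± 0.18 in ST2 control and 10.92 ± 0.08 in shControl adipocytes (-0.71, adjusted p = 0.000612), and the 3 other bright probe sets were lower as well (-0.53 to -0.65). Id1 was lower, with 10.20 ± 0.19 in ST2 control and 10.73 ± 0.01 in shControl adipocytes (-0.53, adjusted p = 0.00711). So 1 of the 6 tested leading probe sets was higher and 2 were lower, where 26.2% of all tested probe sets were called higher and 37.4% lower.

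Acvr1 fell on the threshold in this comparison. Its leading probe set averaged 9.20 ± 0.31 in ST2 control and 8.78 ± 0.11 in shControl adipocytes (SD, n = 3 each), a difference of 0.42 (adjusted p = 0.0533), and its second bright probe set differed by 0.49 and passed (adjusted p = 0.0251). The leading one passed without ST2 control replicate 2 (0.60, adjusted p = 0.00549) and without shSRA replicate 3 (adjusted p = 0.0455), and also with a second quantile normalization, centring on bright probe sets, array weights and a trended, robust variance (adjusted p = 7.82e-05 to 0.0461). The second Ibsp probe set was lower in ST2 control adipocytes (-0.59, adjusted p = 0.0216), at values below the receptor range in both groups, while the leading one differed by -0.06. Alpl (0.10), Tnfrsf11b (0.24) and Sp7 (0.00) did not differ detectably.

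**Figure D3:**
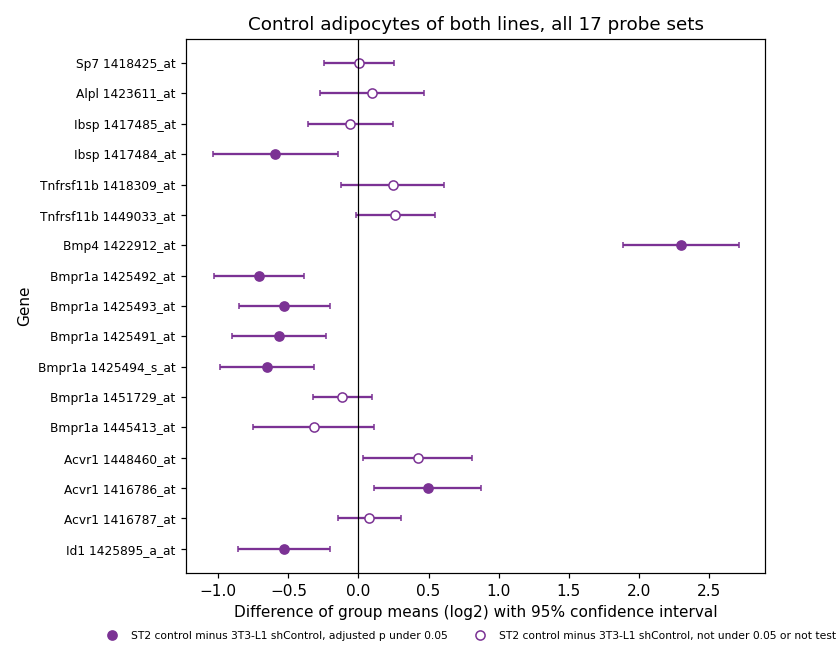
Differences of group means (log2) with 95% confidence intervals, ST2 control minus 3T3-L1 shControl (n = 3 each), for all 17 probe sets. Bmp4 stands at 2.30 with its shControl values below the receptor range, 4 of the 6 Bmpr1a probe sets lie between -0.53 and -0.71, and the leading probe set of Acvr1 is open at 0.42.

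The genes whose pattern over the arrays was most like that of a member were found among 8189 genes, by Pearson's r, as a description. The arrays fall into the 2 lines, so r is given within each line over its 6 arrays, which also share any array-wide shift. For Acvr1 the closest genes were Angpt1, G2e3 and Cad. Angpt1, the ligand of the receptor Tek, followed it with an r of 0.97 within ST2 and 0.98 within 3T3-L1. For Bmp4 they were Ak1, Mbnl3 and Nectin3, and r was 0.96, 0.88 and 0.76 within ST2 but 0.36, 0.82 and 0.99 within 3T3-L1. All Bmp4 values in 3T3-L1 lay below the receptor range, so r there may describe background signal. For Alpl they were C6, Tjp3 and Pde3a, with 0.98, 0.91 and 0.99 within ST2 and 0.83, 0.83 and 0.78 within 3T3-L1.

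The other genes of these pathways, taken from lists written from textbook knowledge with earlier results of these data known, included several that passed the test in ST2 adipocytes. Of 104 listed genes 93 had a probe set, and of the 55 that passed the variance filter and were tested 2 were higher and 11 lower in ST2 SRA than in ST2 control adipocytes, where 2.33% of all tested probe sets were called higher and 5.65% lower. The median difference of the 93 was -0.04, against 0.06 over all genes. After SRA knockdown 0 were higher and 0 lower, with 5 at an unadjusted p under 0.05. In ST2 control against shControl adipocytes, 24 of the 55 were higher and 18 lower, in a comparison that called 26.2% of all tested probe sets higher and 37.4% lower.

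Of 29 measured genes of osteoblast differentiation 19 were tested, and 6 were lower and 0 higher in ST2 SRA adipocytes (median of the 29 -0.23). Over all tested probe sets 5.65% were called lower and 2.33% higher, and the median over all genes was 0.06. The other 23 did not pass or were not tested. Fosl1, the AP-1 subunit Fra-1, had 8.40, 8.41 and 8.91 in ST2 SRA adipocytes, against 10.38, 9.77 and 10.49 in ST2 control adipocytes. This was a difference of -1.64 (-2.05 to -1.22, adjusted p = 1.97e-05), with no overlap. Cdh11, the cadherin of osteoblasts and mesenchymal cells, had 10.95, 10.55 and 11.02 in ST2 SRA adipocytes, against 12.60, 12.18 and 12.40 in ST2 control adipocytes (-1.55, adjusted p = 2.09e-05). Col1a1, the main collagen chain of bone matrix but also of fibroblasts, had 10.17, 9.36 and 10.01 in ST2 SRA adipocytes, against 11.58, 10.86 and 11.51 in ST2 control adipocytes (-1.47, adjusted p = 0.000154). Gja1, which encodes a gap junction connexin, fell by 1.63 on the log2 scale (adjusted p = 9.03e-05). The remaining 2 were Col1a2 (-0.68) and Ank, a pyrophosphate transporter (-0.56).

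Among 18 measured BMP antagonists and modulators 12 were tested, and 3 were lower and 0 higher (median of the 18 -0.25). The shares over all tested probe sets were 5.65% lower and 2.33% higher, and the median over all genes was 0.06. Grem1, which encodes gremlin 1, a secreted antagonist of Bmp2 and Bmp4, had 7.92, 7.66 and 7.90 in ST2 SRA adipocytes, against 9.44, 9.63 and 9.32 in ST2 control adipocytes. The difference was -1.63 (-1.96 to -1.31, adjusted p = 1.55e-06), or 0.32-fold. In 3T3-L1 adipocytes Grem1 lay near the receptor range, with 6.91, 6.68 and 6.61 with shSRA and 6.79, 6.69 and 6.72 with shControl. Fstl1, a secreted follistatin-like glycoprotein, averaged 10.10 in ST2 SRA and 11.92 in ST2 control adipocytes (-1.82, adjusted p = 9.61e-06), and Bmp1, a metalloproteinase that processes procollagen and cleaves chordin, differed by -0.83 (adjusted p = 0.00409).

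Inside the cell, 8 of 13 measured SMADs and their regulators passed the variance filter, and of these 1 was higher and 0 lower. Over all tested probe sets 2.33% were called higher and 5.65% lower. The 1 was Smurf1, a ubiquitin ligase for BMP SMADs, with 9.68, 10.06 and 9.95 in ST2 SRA adipocytes, against 9.32, 9.12 and 9.50 in ST2 control adipocytes (0.58, adjusted p = 0.0257). Of 9 other BMP targets 4 were tested and 1 was higher, Atoh8, a basic helix-loop-helix factor (0.60, adjusted p = 0.0156). Of 9 other BMP ligands 2 were tested, and of 11 other receptors and co-receptors 8. None passed, with 0 and 2 at an unadjusted p under 0.05. Of 5 genes around RANKL only 1 was tested, Csf1, the cytokine that osteoclast precursors need, and it was lower (-0.75, adjusted p = 0.0225). Of 7 bone mineral genes 4 were tested and 2 were lower, Ank and the phosphate transporter Slc20a1 (-0.67, adjusted p = 0.046).

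Single arrays and the form of the test decided some of these calls. With each line fitted alone Col1a2 (adjusted p = 0.0601), Ank (0.146), Slc20a1 (0.0609), Smurf1 (0.123) and Atoh8 (0.095) were lost, and the nested F classification lost Ank, Csf1, Slc20a1 and Smurf1. Slc20a1 was also lost without the variance filter (0.0796) or with a filter on the mean (0.0527), and both Ank and Slc20a1 when both comparisons were adjusted together. Without ST2 control replicate 2 the count was 2 higher and 13 lower. It was 0 higher and 7 lower without ST2 SRA replicate 2, and 7 lower without ST2 control replicate 3, where Col1a2 and Csf1 were lost both times (adjusted p = 0.0565 to 0.162). Atoh8 was lost without any of the ST2 SRA arrays (adjusted p = 0.058 to 0.0694) and Smurf1 without ST2 SRA replicate 2 or 3 (0.164 and 0.102), which left 1 higher without ST2 SRA replicate 1 and 0 without replicate 3. Ank passed only when ST2 SRA replicate 3, ST2 control replicate 2 or shControl replicate 1 was left out (adjusted p otherwise up to 0.195), and Slc20a1 only when shSRA replicate 1 or shControl replicate 1 or 3 was (otherwise up to 0.206). Grem1, Fstl1, Fosl1, Gja1, Cdh11, Col1a1 and Bmp1 passed without each array and under these alternatives.

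**Figure D4:**
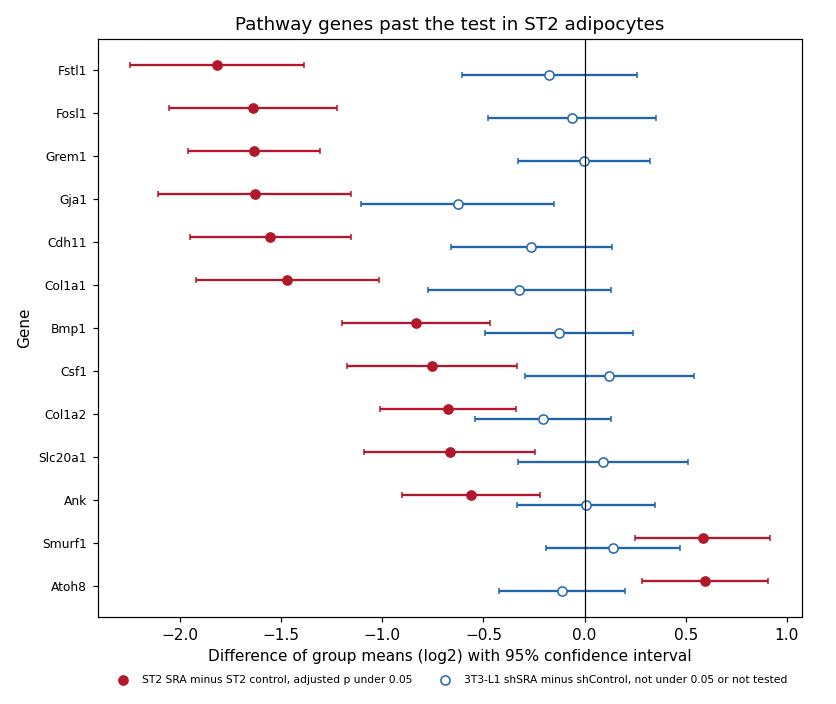
Differences of group means (log2) with 95% confidence intervals for the 13 listed genes past the test in ST2 adipocytes, ST2 SRA minus ST2 control and 3T3-L1 shSRA minus shControl (n = 3 each). Filled points have an adjusted p under 0.05, with 11 genes below 0 and 2 above it in ST2, and all points of the 3T3-L1 comparison are open.

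**Figure D5:**
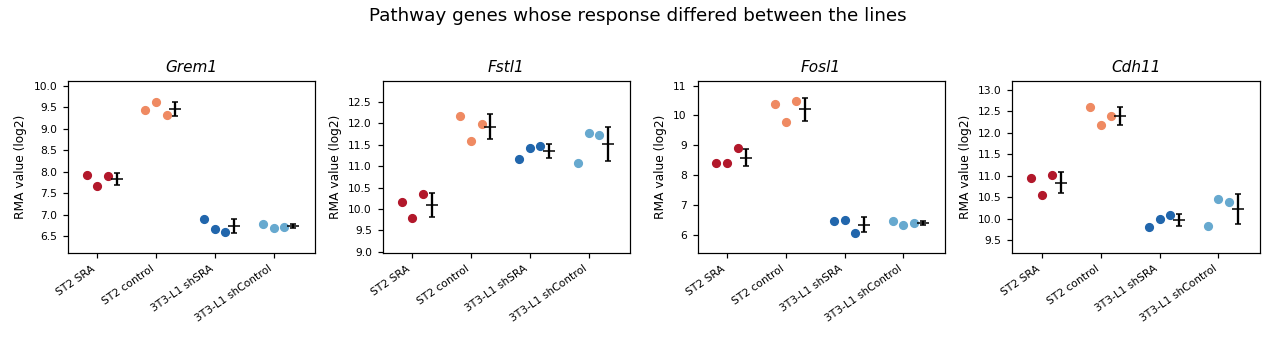
RMA values (log2) on the 12 arrays of the 4 listed genes whose difference in ST2 differed from that in 3T3-L1 adipocytes, with 1 point per array and the mean and SD (n = 3) as a black bar. In each gene the ST2 SRA arrays lie below the ST2 control arrays, while the shSRA and shControl arrays overlap.

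Some markers of other cell states passed the test in the same arrays, where 5.65% of all tested probe sets were called lower and 2.33% higher in ST2 SRA adipocytes. These marker genes are named after their values were seen. All 4 measured mitotic markers were lower in ST2 SRA than in ST2 control adipocytes, with a mean of 6.51 to 7.53 in ST2 SRA and 8.46 to 9.13 in ST2 control adipocytes. Of 9 preadipocyte and fibroblast markers 7 were tested and 3 were lower (Col3a1, Pdgfra and Pdgfrb), with a mean of 7.03 to 7.23 in ST2 SRA and 7.54 to 7.63 in ST2 control adipocytes. Of 9 adipocyte markers 6 were tested and 1 was higher, the glucose transporter Slc2a4 (1.08), with 5 of the 6 at an unadjusted p under 0.05. The median difference of the 9 was 0.41, against 0.06 over all genes. Of 11 macrophage and osteoclast markers 5 were tested and 1 was lower, Ctsk (list mean 6.04 to 6.11 in ST2 SRA and 6.08 to 6.18 in ST2 control adipocytes). Of 8 muscle markers 2 were tested and 1 was higher, Acta1. Of 10 chondrocyte markers 4 were tested and 0 passed. None of the 7 endothelial markers passed the variance filter, so none could be called. The part of these markers in the falls of Grem1, Fosl1, Cdh11 and the collagens was not tested.

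Between the lines, 4 of the 9 other BMP targets were tested. In ST2 control against shControl adipocytes 2 were higher and 0 lower, and the other 7 did not pass or were not tested. The 2, named after their values were seen, were Id3, with means of 10.91 in ST2 control and 8.97 in shControl adipocytes (1.94, adjusted p = 2.59e-06), and Smad7, an inhibitory SMAD (0.66, adjusted p = 0.00198). Of the 11 other receptors and co-receptors 8 were tested, and 5 were lower and 1 higher in ST2 control adipocytes. Of the 18 antagonists and modulators 12 were tested, and 5 were higher and 5 lower, beside 26.2% higher and 37.4% lower over all tested probe sets. The 4 mitotic markers were all higher in ST2 control adipocytes (mean 8.46 to 9.13, against 5.74 to 6.04 in shControl adipocytes), and their part in these differences was not tested.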

How the data were processed

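Gene expression was measured in 12 cultures on 1 type of Affymetrix mouse genome array. Per the methods, the authors computed the deposited log2 values by RMA, which corrects background, quantile-normalizes the arrays and summarizes probes. A difference common to all genes therefore cannot be read from these values. Shifts between arrays were not all removed. ST2 control replicate 2 still deviated from its group by a median of -0.43 over 14314 bright probe sets. The sources used here give no software versions. The log2 values were used as deposited. Probe sets with a variance above 0.05 over the arrays were kept (19068 of 45101), and 1 linear model of the 4 groups was fitted with limma 3.58.1 in R 4.3.3, in which each comparison was tested alone with Benjamini-Hochberg adjustment at 0.05. The steps were tested on simulated arrays. The number of arrays limits the precision. Genes were named from the platform annotation, in which 34958 probe sets had 1 symbol, 932 several and 9211 none. Sequences are from RefSeq (GRCm38.p6). The members and lists were chosen with earlier results of these data known. All members are named and, for the SRA comparisons, up to 4 genes per list and direction with the largest changes past the test, with the rest of a list named only in its count. Same-numbered 3T3-L1 arrays deviated together (r = 0.59, 0.59 and 0.38). Alternatives covered the filter, scaling, weights, variance model, pairing, probe set choice and each array left out.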

Additional observations from a re-analysis of the deposited data

Results flagged for a closer look

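The responses of 4 listed genes differed between the SRA comparisons, by limma's test of the ST2 SRA minus ST2 control difference minus the 3T3-L1 shSRA minus shControl difference. Grem1 gave -1.6303 (adjusted p = 0.000253), Fstl1 -1.6425 (adjusted p = 0.00324), Fosl1 -1.5737 (adjusted p = 0.00325) and Cdh11 -1.2907 (adjusted p = 0.00991). In each the ST2 difference carried this value, since the 3T3-L1 differences were -0.003 for Grem1, -0.18 for Fstl1, -0.06 for Fosl1 and -0.26 for Cdh11, none past the test. Grem1 and Fosl1 read near the range of unused receptor genes in 3T3-L1 adipocytes.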

How the results depend on the processing

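Most values kept their direction and their side of the threshold. The alternatives that moved a count by over 1.5 times, and some smaller moves, are given here, with the cause not tested. In ST2 adipocytes, where 0 members were lower, 1 was lower after a second quantile normalization, 1 when centred on bright probe sets, 2 with array weights and 2 with the replicate block. In the difference of the SRA effects 1 member was lower with array weights and 1 with the block. Set against shControl adipocytes, 2 members were higher in ST2 control adipocytes, in place of 1, after the second quantile normalization, centring on bright probe sets, array weights, a trended and robust variance, or taking the probe set of highest variance, which also gave 3 lower in place of 2. Leaving out each array gave 0 to 1, 0 to 1 and 1 to 2 in these comparisons.

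Of the listed pathway genes in ST2 SRA adipocytes, array weights called 4 higher and 21 lower, each line fitted alone 0 higher and 8 lower, the nested F classification 1 higher and 9 lower, both comparisons adjusted together 2 higher and 9 lower, and leaving out each array 0 to 2 higher and 7 to 13 lower. Between the control adipocytes the listed genes ran over 18 to 27 higher and 15 to 19 lower. After SRA knockdown 1 was lower with array weights and 1 with the nested F classification. In the difference of the SRA effects, 1 was higher without the variance filter, 1 after the second quantile normalization, 2 with array weights and 1 with the block, while 14 were lower with array weights, 8 with the block, and leaving out each array gave 0 to 1 higher and 4 to 7 lower.

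Same-numbered ST2 arrays did not all deviate together (r = 0.04, 0.27 and 0.53), and not every one correlated best with its own number, so the numbers were not taken as pairs there. Over all probe sets the block raised the ST2 calls to 1377 higher and 1646 lower, in place of 445 and 1077. Over the alternatives that keep all arrays, the calls over all probe sets ran over 182 to 3145 higher and 802 to 4182 lower in ST2 adipocytes, 1 to 62 higher and 2 to 53 lower in 3T3-L1 adipocytes, and 45 to 881 higher and 300 to 2273 lower in the difference of the SRA effects, with most calls from array weights except for the higher ones in 3T3-L1, which the block gave. The block changed no call of a member's leading probe set beyond those given and none among the pathway genes after SRA knockdown.

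Values that changed sign were all small and not called. In ST2 adipocytes Alpl became 0.1019 with array weights. Bmpr1a became -0.0568 after the second quantile normalization, -0.0566 when centred on bright probe sets and -0.0403 with array weights, and Id1 became -0.0570, -0.0586 and -0.0714 in that order. Ibsp became 0.0298 with the probe set of highest variance. After SRA knockdown Bmpr1a became 0.2488 with that probe set and 0.1163 as the mean of its probe sets. Centring on bright probe sets turned Ibsp to 0.0359 between the control adipocytes and to -0.0177 in the difference of the SRA effects. Leaving out single arrays gave ranges across 0 in ST2 for Alpl (-0.0722 to 0.0921), Tnfrsf11b (-0.0566 to 0.2245), Bmpr1a (-0.0795 to 0.1015) and Id1 (-0.0897 to 0.0859), in 3T3-L1 for Tnfrsf11b (-0.2171 to 0.0487) and Id1 (-0.0166 to 0.1812), between the control adipocytes for Alpl (-0.0124 to 0.1748), and in the difference of the SRA effects for Bmpr1a (-0.0313 to 0.1497) and Id1 (-0.1691 to 0.0336). Signals at or below the receptor range limit what Ibsp, Tnfrsf11b and, in 3T3-L1 adipocytes, Bmp4 can show.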
